A study of Mus musculus with 10 samples.

Results

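The glucocorticoid receptor Nr3c1, the enzyme Hsd11b1 that supplies its ligand inside cells, and 8 genes that corticosterone is known to induce were followed in mouse brown fat after a chemogenetic stimulus to the brain. The 10 genes were taken by symbol (Nr3c1, Hsd11b1, Fkbp5, Tsc22d3, Zbtb16, Sgk1, Ddit4, Mt1, Mt2 and Sult1a1) from a deposited table of 26863 genes. They were chosen with earlier results of these data known. Each symbol matched 1 row, and all 10 passed the filter on low values. PolyA RNA of the Intrascapular brown adipose tissue was sequenced from 5 PnocCre and 5 Wildtype samples. Every sample of both genotypes was collected 1 h after an injection of CNO (clozapine-N-oxide, the ligand of designer receptors), so the comparison is one of genotypes under the same injection and holds no vehicle arm. By the series' description the stimulus was aimed at PNOC neurons of the mPOA, the medial preoptic region of the hypothalamus, which helps to set body temperature. PnocCre names a Cre driver of the prepronociceptin gene. Neither the designer receptor and its presence in Wildtype animals nor the strain, sex and age of the mice are stated in the labels.

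Glucocorticoids are steroid hormones that the adrenal cortex releases on command of the hypothalamus and pituitary. Without hormone the receptor waits in the cytosol, held by heat shock proteins and immunophilins. With hormone it moves into the nucleus, binds palindromic DNA elements and switches on its first target genes soon after exposure. In brown adipocytes glucocorticoids are known to favour lipid storage and to restrain adrenergic induction of Ucp1 in rodents. Some of the targets act back on the pathway itself, since Fkbp5 lowers the affinity of the receptor for its hormone.

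Libraries held 21304238 to 29171787 reads, and 16.1% to 20.7% of them came from mitochondrially encoded genes. The labelled tissue carried its defining transcripts: all 13 brown adipocyte markers were detected, and their summed level was 150714 to 184165 normalised counts in PnocCre and 195565 to 241844 in Wildtype. These sums did not overlap. All 13 markers were lower in PnocCre (median log2 fold change -0.38), of which limma called 0 and DESeq2 called 3. Markers of other cell types were higher in some or all PnocCre libraries, and limma called none of them. All 19 skeletal muscle markers tested were higher in PnocCre (median log2 fold change 5.27), with summed levels of 7936 to 227212 in PnocCre and 1296 to 29123 in Wildtype. All 14 fibroblast and preadipocyte markers were higher (19374 to 25942 in PnocCre and 11782 to 20965 in Wildtype), and DESeq2 called 5 of them. Macrophage markers were higher for 11 of 12, of which DESeq2 called 3, and their mean log2 level did not overlap (7.07 to 7.73 in PnocCre and 6.81 to 7.04 in Wildtype). White adipocyte markers were higher for 9 of 10 tested (median log2 fold change 1.11), of which DESeq2 called 3, with overlapping sums of 65973 to 107786 in PnocCre and 57061 to 91661 in Wildtype. Endothelial sums overlapped too (20046 to 39017 in PnocCre and 19052 to 34568 in Wildtype). The part of these cell types in the results on the 10 genes was not tested, and only the level of the muscle markers was added to some fits. That mean log2 level was 7.84 to 12.77 in PnocCre and 2.04 to 9.74 in Wildtype. PnocCre replicates 2 to 5 lay above every Wildtype library, so these fits cannot fully separate genotype from muscle level. The 14 lymphocyte markers summed to 9556 in PnocCre replicate 2, to 329 to 764 in the remaining PnocCre libraries, and to 260.4 to 365 in Wildtype. The 8 neutrophil markers summed to 718 in PnocCre replicate 1, to 34.3 to 82.6 in the remaining ones, and to 22.1 to 71.0 in Wildtype, where Ly6g, Cxcr2 and Camp were at 0 throughout. These libraries are bulk tissue, in which fewer cells of a type and less RNA per cell cannot be told apart.

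Promoters of 8 of the 10 genes were searched in RefSeq tables of build GRCm38.p6 (the deposited table uses GRCm39), as 15 windows of 250 bases upstream of a transcript start. Nr3c1 was left out of this search because windows on its chromosome, 18, were dropped for these genes but kept in the genome-wide counts. Zbtb16 had no window in these tables. The full palindromic receptor element, searched on both strands as AGAACA, 3 free bases and TGTTCT, was present in 3 of 32851 such windows of the genome, and 1 of these belonged to Sgk1. It lay at chr10:21993701-21993715, and its first base was 189 bases before the transcript start. This window is shown because no other of the 15 windows searched held the full element (chr10:21993640-21993889, plus strand, capitals mark the element).
Sgk1: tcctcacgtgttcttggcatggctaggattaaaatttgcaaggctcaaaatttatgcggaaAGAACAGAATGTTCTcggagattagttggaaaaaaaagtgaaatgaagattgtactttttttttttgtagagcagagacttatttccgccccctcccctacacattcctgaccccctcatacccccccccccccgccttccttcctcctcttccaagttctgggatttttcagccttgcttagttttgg
The single arm of the palindrome, AGAACA on either strand, was far less selective: 16.1% of all windows held it, as did 5 of the 15 windows of these genes. Those 5 belonged to Sgk1, Sult1a1 and Tsc22d3 only, and Sgk1 alone had 6 of the 15 windows. Both arms of the Sgk1 element are counted in that search. The Sult1a1 window is shown for its 2 single arms, in capitals (chr7:126676419-126676668, minus strand).
Sult1a1: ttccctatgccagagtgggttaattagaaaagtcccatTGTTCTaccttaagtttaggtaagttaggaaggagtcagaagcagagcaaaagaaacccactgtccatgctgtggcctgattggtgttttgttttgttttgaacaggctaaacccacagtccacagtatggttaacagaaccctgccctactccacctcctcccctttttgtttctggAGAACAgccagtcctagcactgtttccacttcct
Metallothionein genes are switched on by zinc and other metals as well as by glucocorticoids, through metal response elements. The core of these elements, searched on both strands as TGCGCNC or TGCACNC, was found in 21.4% of all windows. Of the windows of these genes 4 held it, those of Ddit4, Hsd11b1, Mt1 and Mt2. Mt1 held 1 copy and Mt2 held 3, shown in capitals for comparison of the paired genes (chr8:94178839-94179088, plus strand for Mt1; chr8:94172368-94172617, plus strand for Mt2).
Mt1: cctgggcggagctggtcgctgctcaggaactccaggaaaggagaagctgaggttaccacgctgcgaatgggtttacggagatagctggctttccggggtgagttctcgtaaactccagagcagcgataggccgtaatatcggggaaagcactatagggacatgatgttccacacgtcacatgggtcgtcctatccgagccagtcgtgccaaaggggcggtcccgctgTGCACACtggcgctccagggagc
Mt2: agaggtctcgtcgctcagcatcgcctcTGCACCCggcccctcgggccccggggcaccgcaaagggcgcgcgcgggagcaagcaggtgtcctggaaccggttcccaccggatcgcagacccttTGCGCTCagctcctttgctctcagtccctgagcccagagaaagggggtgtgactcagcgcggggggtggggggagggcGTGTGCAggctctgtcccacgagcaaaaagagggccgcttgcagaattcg
The upstream windows of Ddit4 and Fkbp5 held neither the full element nor a single arm. Only exact letters within 250 bases were searched, so an absence says nothing of sites elsewhere or with other letters. A match is a description of letters in these windows, and the binding of the receptor was not measured.

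The receptor itself was expressed at the same order of magnitude in every library. Nr3c1 (chromosome 18, 39543598 to 39652474, GRCm39) had 1561, 1713, 1588, 1761 and 1757 normalised counts in PnocCre replicates 1 to 5, against 1676, 1365, 1944, 1832 and 1368 in Wildtype. PnocCre values lay wholly inside the Wildtype range. The group means were 1676 ± 95.3 in PnocCre samples and 1637 ± 265 in Wildtype samples (SD, n = 5 each), and the log2 fold change was 0.047 with a 95% interval of -0.21 to 0.30. It did not pass limma's test across all 15301 genes (adjusted p 0.847).

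Hsd11b1 (chromosome 1, 192903942 to 192946383), the reductase that regenerates active corticosterone from its inert form within the cell, was among the more abundant of the genes. It had 2513, 1974, 2784, 3682 and 3012 normalised counts in PnocCre, against 2781, 2890, 2763, 2863 and 4301 in Wildtype. The groups overlapped, and 2 PnocCre libraries lay below the lowest Wildtype one. Wildtype replicates 1 to 4 were close together, and replicate 5 stood above all libraries of both genotypes. The log2 fold change was -0.17 (95% interval -0.55 to 0.21, limma adjusted p 0.622).

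Fkbp5 (chromosome 17, 28618068 to 28736501), the immunophilin that feeds back on the receptor, was higher in every PnocCre library than in any Wildtype library. It had 126, 127, 193, 147 and 217 normalised counts in PnocCre replicates 1 to 5, against 112, 109.7, 109, 122 and 83.7 in Wildtype. The gap between the groups was narrow, with PnocCre replicates 1 and 2 just above Wildtype replicate 4. The log2 fold change was 0.57 (SE 0.19), and the gene did not pass over all genes with limma (adjusted p 0.186), edgeR's quasi-likelihood test (0.176) or DESeq2 (0.0738). Without PnocCre replicates 1 and 2, the libraries rich in neutrophil and lymphocyte transcripts, DESeq2 gave 0.79 and an adjusted p of 0.00789, while limma gave 0.78 and 0.124. Those libraries held the lowest PnocCre values of Fkbp5, so leaving them out had to raise the fold change. Their removal was added after the data were seen. They were also the PnocCre libraries lowest in muscle markers (mean log2 level 7.84 and 9.89). In that level the remaining PnocCre libraries (10.74 to 12.77) all lay above every Wildtype library (2.04 to 9.74). When the mean muscle marker level was added to the fit, the log2 fold change was 0.30 with limma (SE 0.24, adjusted p 0.445).

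Tsc22d3 (chromosome X, 139440277 to 139501408) encodes GILZ, a leucine zipper protein through which glucocorticoids dampen inflammation. It had 687, 1111, 669, 740.3 and 1085 normalised counts in PnocCre, against 734, 491, 532, 782 and 408 in Wildtype. Only PnocCre replicates 2 and 5 exceeded the highest Wildtype library, although all 5 lay above the Wildtype median of 532. The log2 fold change of 0.55 (SE 0.21) did not pass with limma (adjusted p 0.223) or DESeq2 (0.159). It was 0.32 with the muscle marker covariate.

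Zbtb16 (chromosome 9, 48565597 to 48747522), a zinc finger transcription factor strongly induced by glucocorticoids in human cells, was the most uneven of these targets within PnocCre apart from Mt2. Its normalised counts were 58.9, 54.5, 181, 228 and 382 in PnocCre, against 81.5, 148, 208, 178 and 198 in Wildtype. PnocCre replicates 1 and 2 lay below every Wildtype library and replicates 4 and 5 lay above every one, so the groups overlapped on both sides. Limma gave a log2 fold change of -0.16 (95% interval -1.25 to 0.94, adjusted p 0.886) and DESeq2 gave 0.15 (adjusted p 0.892), so its sign depended on the tool. It was 0.70 with both tools without PnocCre replicates 1 and 2, with an adjusted p of 0.454 for limma and 0.373 for DESeq2. Those replicates held the lowest PnocCre values of Zbtb16, so leaving them out had to raise the fold change. In PnocCre the mean log2 level of the muscle markers was 7.84, 9.89, 10.74, 11.94 and 12.77 in replicates 1 to 5. In Wildtype replicates 1 to 5 that level was 2.43, 4.27, 9.74, 9.74 and 2.04. With it as a covariate limma gave -1.03 (adjusted p 0.319).

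**Figure D1:**
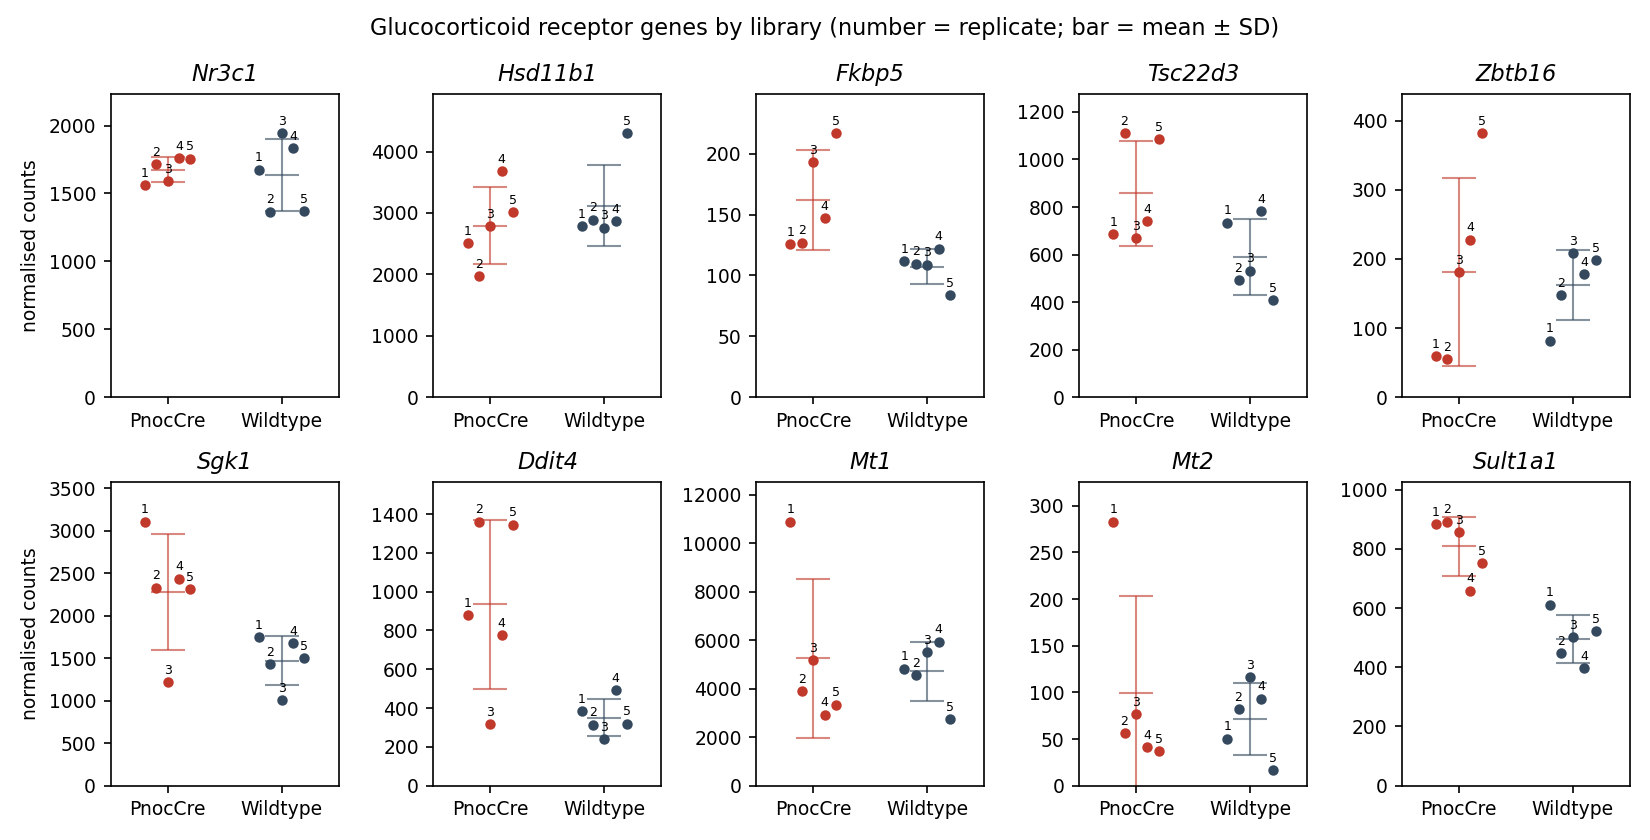
Normalised counts of the 10 genes in each library (y axis from 0), PnocCre in red and Wildtype in grey, with the replicate number beside each point and the mean ± SD of 5 libraries as bars. Fkbp5 and Sult1a1 show no overlap between the genotypes, and the highest Mt1 and Mt2 values (10893 and 283) both belong to PnocCre replicate 1.

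Sgk1 (chromosome 10, 21758083 to 21875802), a kinase that regulates ion channels and transporters and is named for its induction by serum and glucocorticoids, carries the full receptor element printed above. It had 3107, 2329, 1215, 2434 and 2309 normalised counts in PnocCre, against 1751, 1426, 1009, 1674 and 1503 in Wildtype. As many as 4 PnocCre libraries exceeded every Wildtype one, and replicate 3 lay inside the Wildtype range. The log2 fold change was 0.59 (SE 0.23), with an adjusted p of 0.229 with limma and 0.0994 with DESeq2. Without PnocCre replicate 3 DESeq2 gave 0.79 and an adjusted p of 0.00331, and limma gave 0.80 and 0.140. That replicate held the lowest PnocCre value, so leaving it out had to raise the fold change. It was 0.39 with limma without PnocCre replicates 1 and 2 (adjusted p 0.596).

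Ddit4 (chromosome 10, 59785491 to 59787656) encodes REDD1, an inhibitor of the growth kinase complex mTORC1 that is induced by glucocorticoids and also by low oxygen and energy stress. It had the largest fold change of the 10 genes. Normalised counts were 878, 1361, 316, 777 and 1345 in PnocCre, against 384, 314, 238, 493 and 319.5 in Wildtype. As with Sgk1, 4 PnocCre libraries exceeded every Wildtype library and replicate 3 did not. The means were 935 ± 436 in PnocCre samples and 349.7 ± 95.1 in Wildtype samples (SD, n = 5 each).

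The Ddit4 difference passed DESeq2 (log2 fold change 1.42, SE 0.33, adjusted p 0.00290), as it does in the authors' deposited table, but not limma (1.29, SE 0.35, adjusted p 0.153) or edgeR (1.45, adjusted p 0.129). With DESeq2 it passed without any 1 library, with adjusted p-values from 1.76e-07 to 0.0218. The call was lost without PnocCre replicates 1 and 2 together (1.22, SE 0.47, adjusted p 0.225) and with the muscle marker covariate (1.32, SE 0.46, adjusted p 0.0643).

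Sult1a1 (chromosome 7, 126272037 to 126275604), a cytosolic sulfotransferase that conjugates phenols and some hormones, showed the most even difference. It had 884, 892, 856, 659 and 751 normalised counts in PnocCre replicates 1 to 5, against 611, 447, 501, 396 and 523 in Wildtype. Every PnocCre library exceeded every Wildtype library, and the means were 808 ± 101 in PnocCre samples and 495 ± 81.2 in Wildtype samples (SD, n = 5 each). Its p-value ranked 25 among 15301 genes with limma, but after adjustment over all of them it did not pass (log2 fold change 0.71, SE 0.13, 95% interval 0.42 to 1.00, adjusted p 0.103), nor did it with edgeR (0.74, adjusted p 0.108).

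With DESeq2 Sult1a1 rose (0.70, SE 0.15, adjusted p 7.84e-04), and the call held without any 1 library (adjusted p 6.25e-05 to 0.0118), without PnocCre replicates 1 and 2 (0.61, adjusted p 0.0196) and with the muscle marker covariate (0.93, adjusted p 2.98e-04). Weighting libraries by their quality gave a call with limma as well (0.77, adjusted p 0.0421).

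Mt1 and Mt2 encode metallothioneins, small cysteine-rich proteins that bind zinc and copper, and lie next to each other on chromosome 8 (94905710 to 94906955 and 94899292 to 94900196). Mt1 was the most abundant of the 10 genes, with 10893, 3910, 5177, 2924 and 3348 normalised counts in PnocCre, against 4822, 4556, 5509, 5944 and 2743 in Wildtype. Mt2 had 283, 56.3, 76.6, 41.6 and 37.0 in PnocCre, against 50.2, 81.8, 116, 93.2 and 16.3 in Wildtype. Both genes were highest in PnocCre replicate 1 and lowest, over the Wildtype libraries, in Wildtype replicate 5. That PnocCre library is the one with 718 counts of neutrophil markers, and the part of these cells in the metallothionein level was not tested.

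Neither metallothionein passed between the genotypes: log2 fold changes were 0.026 for Mt1 (95% interval -0.69 to 0.74, limma adjusted p 0.971) and 0.27 for Mt2 (-1.05 to 1.59, adjusted p 0.831). Without PnocCre replicate 1 the signs turned, to -0.28 and -0.22. The ratio of Mt1 to Mt2 counts had a lowest, median and highest value of 38.5, 69.5 and 90.4 in PnocCre and of 47.5, 63.8 and 169 in Wildtype. Reads that fit both genes may have been split or dropped in counting, so this ratio is uncertain.

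**Figure D2:**
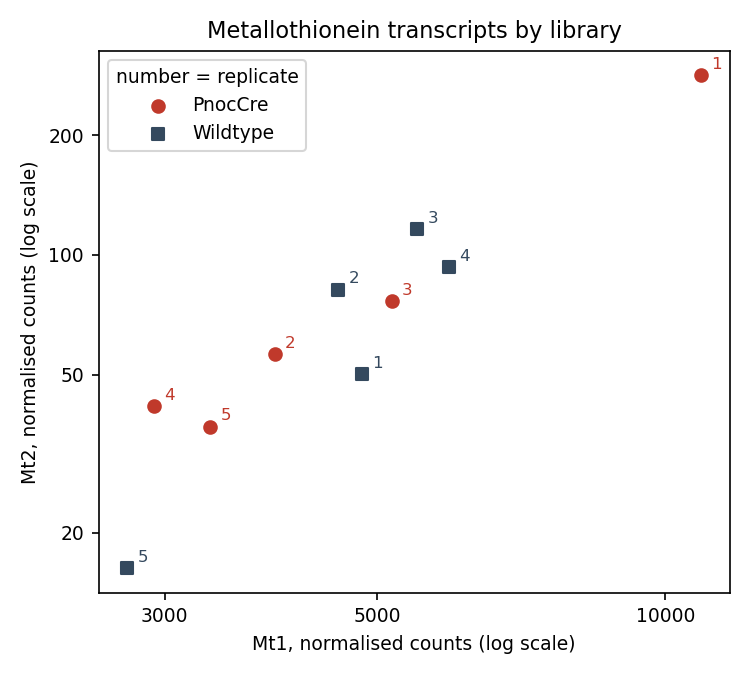
Mt1 against Mt2, both in normalised counts on log axes, with PnocCre libraries as red circles and Wildtype as grey squares, numbered by replicate. The genes follow each other across libraries, and the genotypes mix along the diagonal except for PnocCre replicate 1 at the top and Wildtype replicate 5 at the bottom.

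Levels of different genes were set side by side per kilobase of gene length, as the mean over all 10 libraries. Mt1 stood at 3999 normalised counts per kilobase, above 98.3% of the 15301 genes tested. Hsd11b1 followed at 695, Sult1a1 at 433, Sgk1 at 383, Ddit4 at 366, Nr3c1 at 216, Tsc22d3 at 167 and Mt2 at 145. The lowest were Zbtb16 at 32.5 and Fkbp5 at 14.2, and Fkbp5 exceeded only 19.9% of the genes tested on this scale. The length given for Mt1 (1246 bases) equals its whole genomic span, introns included, so its level per kilobase is if anything understated.

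Over the 10 genes, 8 had a positive and 2 a negative log2 fold change with limma, with a median of 0.41, where the median of all 15301 genes was -0.0062 and 49.3% were positive. The median was 0.21 without Wildtype replicate 5, 0.22 with library weights and 0.17 with the muscle marker covariate. Limma called 0 of the 10 at an adjusted p under 0.05, as it called 0% of all genes, and edgeR called 0 of 10 and 0% of 15070. At an unadjusted p under 0.05, 5 of the 10 were higher (Fkbp5, Tsc22d3, Sgk1, Ddit4 and Sult1a1) and 0 lower, where 8.94% of all genes were higher and 8.07% lower; edgeR and DESeq2 gave the same count of 5. DESeq2 called 2 of the 10 after adjustment, both higher, against 3.44% of the 16733 genes it tested, or 2.20% for higher ones. Groups without overlap were found for 2 of the 10 genes, both higher in PnocCre and 0 lower, against 4.40% of all genes (1.79% higher and 2.61% lower). The 5 genes that were not higher at that p were the receptor, the corticosterone-regenerating enzyme, Zbtb16 and both metallothioneins.

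**Figure D3:**
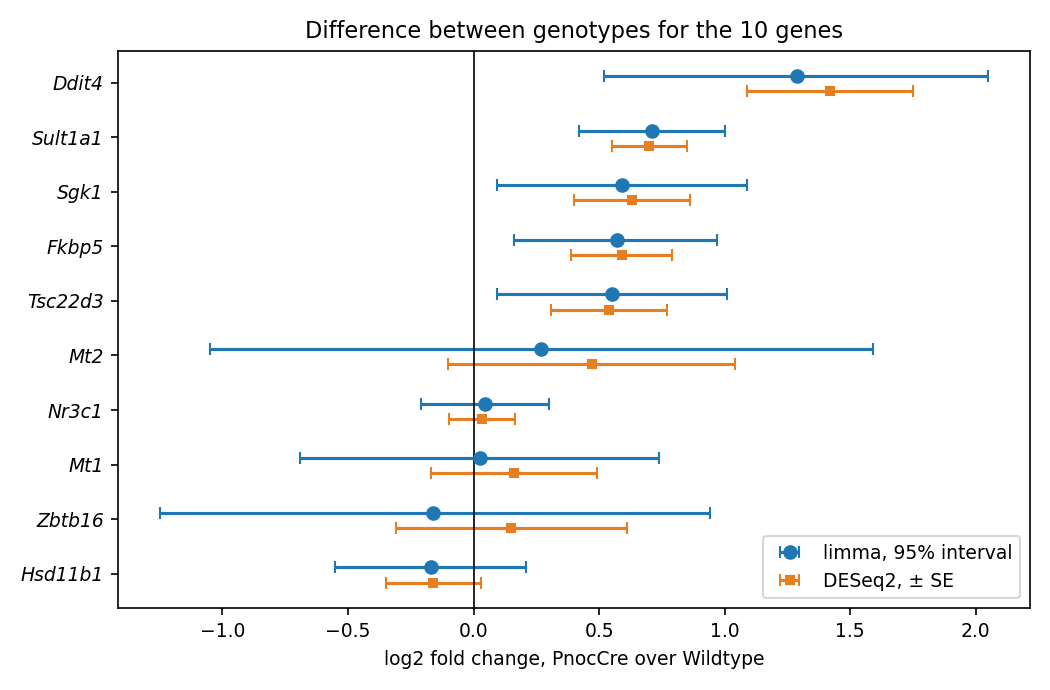
Log2 fold change of PnocCre over Wildtype for each gene, from limma with its 95% interval (blue circles) and from DESeq2 with ± 1 SE (orange squares). The intervals of Ddit4, Sult1a1, Sgk1, Fkbp5 and Tsc22d3 lie above 0 before adjustment, and those of the other 5 genes include 0.

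Leaving out 1 library at a time kept those 5 genes positive in limma. They were picked by their p in the same libraries, so a kept sign is no further support. For Fkbp5 and Sult1a1, whose groups did not overlap, the sign could not turn. The log2 fold change ran from 1.11 to 1.63 for Ddit4, from 0.63 to 0.79 for Sult1a1, from 0.46 to 0.80 for Sgk1, from 0.45 to 0.65 for Fkbp5 and from 0.43 to 0.66 for Tsc22d3. Hsd11b1 stayed negative (-0.27 to -0.046), whereas Nr3c1, Mt1, Mt2 and Zbtb16 changed sign with at least 1 library left out.

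**Figure D4:**
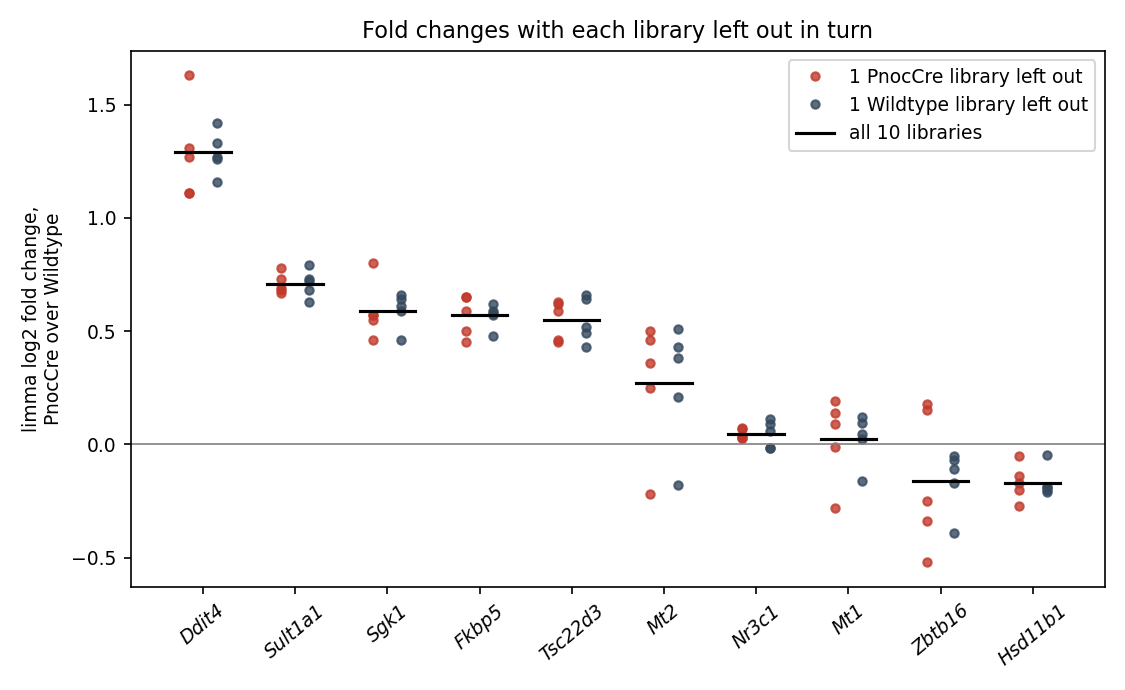
Limma log2 fold change of each gene with 1 PnocCre library (red) or 1 Wildtype library (grey) left out, and with all 10 libraries (black line). The widest spreads belong to Mt2 (-0.22 to 0.51) and Zbtb16 (-0.52 to 0.18), and Ddit4 is highest without PnocCre replicate 3.

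The 10 genes did not move as a block from library to library. Log2 levels were centred within each genotype and compared over the 10 libraries for all 45 pairs of genes, as a description without a test, since pairs share libraries and depth. The median Pearson r was -0.044, and 6 pairs exceeded 0.5. Mt1 and Mt2 were the closest pair (r 0.95, Spearman rho 0.94, and r 0.88 without 2 libraries). Values without 2 libraries leave out those farthest from the centre for the gene named first. Tsc22d3 and Ddit4 followed each other too (r 0.70, rho 0.70, and 0.75 without 2 libraries), as did Nr3c1 and Tsc22d3 (r 0.60, rho 0.65, and 0.82 without 2 libraries). Sgk1 and Ddit4 had r 0.78 and rho 0.62, with r 0.77 within PnocCre and 0.87 within Wildtype. Without the 2 libraries most extreme in Sgk1, r was -0.039, so the high value depends on those. Fkbp5 had r -0.40 with Sgk1 (-0.59 without 2 libraries) and -0.12 with Ddit4 (-0.54 without 2 libraries). Its r of 0.63 with Zbtb16 (rho 0.42) was 0.87 within PnocCre and -0.31 within Wildtype, each over 5 libraries only. Hsd11b1 followed Zbtb16 (r 0.66, rho 0.61, and 0.60 without 2 libraries), and Zbtb16 ran opposite to Sult1a1 (r -0.60, rho -0.59, and -0.61 without 2 libraries). Hsd11b1 also ran opposite to Mt1 (r -0.55, rho -0.59), to Mt2 (r -0.59, rho -0.59) and to Tsc22d3 (r -0.53, rho -0.50, and r -0.13 without 2 libraries).

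Single libraries held several extremes at once. Wildtype replicate 5 had the lowest Wildtype level of 4 genes (Fkbp5, Tsc22d3, Mt1 and Mt2) and the highest of Hsd11b1. PnocCre replicate 3 had the lowest PnocCre level of Tsc22d3, Sgk1 and Ddit4, while PnocCre replicate 2, the lymphocyte-rich library, had the highest of Tsc22d3, Ddit4 and Sult1a1 and the lowest of Hsd11b1 and Zbtb16. The part of other cell types in these extremes was not tested.

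Among genes that act with the receptor, few differences were found. Of 18 chaperones, cochaperones and coregulators, 14 were lower and 4 higher in PnocCre (median log2 fold change -0.16, against -0.0062 over all genes), and 0 passed with limma, edgeR or DESeq2. The median was -0.04 with limma and -0.037 with DESeq2 without PnocCre replicates 1 and 2, and -0.26 with both tools without PnocCre replicate 4. At an unadjusted p under 0.05 there were 3 lower and 1 higher, where 8.07% of all genes were lower and 8.94% higher. The higher one, named after its value was seen, was the coactivator Ncoa3 (0.29). Fkbp4, the immunophilin that competes with Fkbp5 and favours transport of the receptor to the nucleus, averaged 2685 ± 302 in PnocCre samples and 3328 ± 292 in Wildtype samples (SD, n = 5 each; log2 fold change -0.31, limma adjusted p 0.196). Neither it nor Fkbp5 passed. The chaperones Hspa8 and Hsp90aa1 stood at -0.47 and -0.40 (limma adjusted p 0.250 and 0.255).

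Genes of steroid handling, mostly steroid enzymes and transporters, had 9 of 16 members past the filter, 5 higher and 4 lower (median 0.17, and -0.0039 without PnocCre replicates 1 and 2). With 1 library left out that median ran from 0.045 (without PnocCre replicate 1) to 0.19 (without PnocCre replicate 3). Limma and edgeR called 0, 1 was lower at an unadjusted p under 0.05 (8.07% of all genes were), and DESeq2 called 1 lower (1.24% of all genes were). That gene was Hsd17b12, a reductase that also serves the elongation of long fatty acids, with 5964 ± 978 in PnocCre samples and 8962 ± 907 in Wildtype samples (SD, n = 5 each). Its groups did not overlap (DESeq2 log2 fold change -0.59, adjusted p 0.00418; limma -0.60, adjusted p 0.120). The next by limma's p were Srd5a3 (0.27) and Hsd17b10 (-0.16).

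Another 38 genes known as glucocorticoid targets were read in the same way, of which 35 passed the filter. With limma 21 were higher and 14 lower, and the median log2 fold change was 0.12. With 1 library left out that median ran from 0.034 (without PnocCre replicate 4) to 0.22 (without PnocCre replicate 2 or Wildtype replicate 3), and was 0.059 without Wildtype replicate 1. It was -0.097 with the muscle marker covariate. Limma called 0, as did edgeR, and 7 were higher and 2 lower at an unadjusted p under 0.05, where 8.94% of all genes were higher and 8.07% lower. The lower ones were Cebpb and, named after its value was seen, Mgst1 (-0.26). Of the 7 higher ones only Rgs2 and Cited2 are named, as those that DESeq2 called. DESeq2 called 2 higher and 1 lower, where it called 2.20% of all genes higher and 1.24% lower. Rgs2, a brake on G-protein signalling, averaged 3582 ± 1519 in PnocCre samples and 1336 ± 284 in Wildtype samples (SD, n = 5 each; DESeq2 log2 fold change 1.42, adjusted p 6.09e-04; limma 1.31, adjusted p 0.127). Cited2, a transcriptional coregulator, averaged 245 ± 47.8 in PnocCre samples and 144 ± 17.0 in Wildtype samples (SD, n = 5 each; DESeq2 0.77, adjusted p 0.00360; limma adjusted p 0.120). Cebpb, an adipogenic transcription factor that glucocorticoids are known to induce, was lower, with 3554 ± 506 in PnocCre samples and 6016 ± 1503 in Wildtype samples (SD, n = 5 each) and no overlap between groups (DESeq2 -0.76, adjusted p 0.00592; limma -0.74, adjusted p 0.127).

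Close relatives of the 10 genes and genes of metal handling gave few differences. Of 12 relatives measured, 8 were higher and 4 lower (median 0.13, and 0.048 without PnocCre replicates 1 and 2), with 1 higher at an unadjusted p under 0.05 (8.94% of all genes were) and 0 called by limma, edgeR or DESeq2. That 1 was Ddit4l, a paralog of Ddit4 that is abundant in skeletal muscle, with 37.2 to 505 normalised counts in PnocCre and 1.16 to 74.6 in Wildtype (limma log2 fold change 3.43, SE 1.05, adjusted p 0.167). Skeletal muscle markers differed in the same direction (median 5.27), and their part in the Ddit4l difference was not tested. Fkbp10 (0.44) and Fkbp8 (-0.14) came next by limma's p. Of 19 metal handling genes, 7 were higher and 12 lower (median -0.059, and 0.026 with edgeR), 1 was lower at an unadjusted p under 0.05 (8.07% of all genes were), and 0 were called by the 3 tools. The copper importer Slc31a1 stood at -0.35 and the transferrin receptor Tfrc at 0.69 (limma adjusted p 0.203 and 0.339), and the zinc importer Slc39a1 at -0.25.

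**Figure D5:**
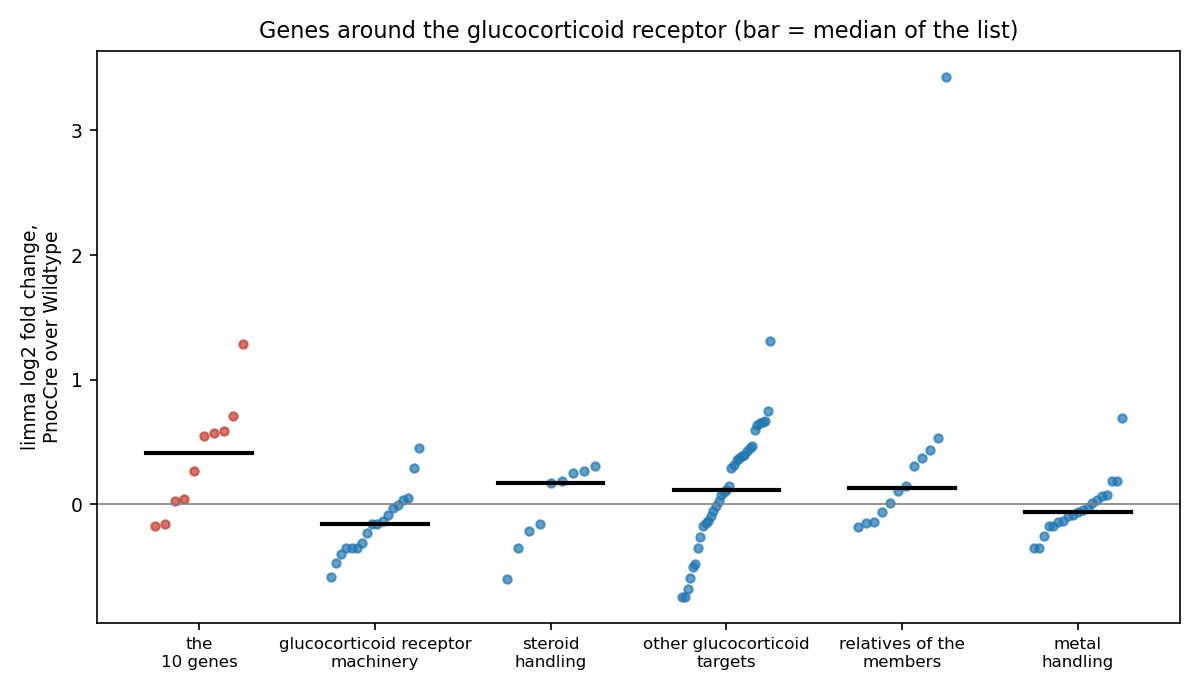
Limma log2 fold change of PnocCre over Wildtype for the 10 genes (red) and for each measured gene of 5 surrounding lists (blue), ordered by value within a list, with the median as a black bar. The median is 0.41 for the 10 genes and -0.16 for the receptor machinery, and the highest point is Ddit4l.

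For each of the 10 genes, the 3 protein-coding genes with the most similar pattern within genotypes were sought among 10882 genes, again over 10 libraries and without a test. High values are bound to occur at the top of so many. Nr3c1 was closest to the cochaperone gene Dnaja2 (r 0.96, rho 0.96), Usp2 and Cdk8, and Hsd11b1 to Ppp1r8 (r 0.96, rho 0.92), Cask and Odf3l1. Among the targets, Fkbp5 was closest to Phf13 (r 0.96, rho 0.92), Apba3 and Coq2, and Tsc22d3 to Itm2a (r 0.93, rho 0.92), Nt5c3 and Mn1. Zbtb16 was closest to Etfdh, an electron carrier of fatty acid oxidation (r 0.99, rho 0.93), Tppp and Kifbp. Sgk1 had Haus7 (r 0.93, rho 0.75), Zmym4 and Map4k5, and Ddit4 had Thbs3 (r 0.92, rho 0.83), Dnm1 and Ccdc66. Mt1 was closest to the death receptor gene Fas (r 0.98, rho 0.92), Ifi204 and the innate immune adaptor gene Myd88, while Mt2 was closest to Itga5 (r 0.97, rho 0.98), Crtc2 and Sertad1. Sult1a1 had Aldh16a1 (r 0.94, rho 0.98), Ebpl and Exoc3l.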

How the data were processed

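PolyA RNA libraries of 5 PnocCre and 5 Wildtype samples were made with the dUTP method, which keeps strand, per the labels' protocols. The submitters' processing notes list HISAT2 2.0.5, featureCounts 1.5.0-p3, DESeq2 and GRCm39; which annotation was counted, and whether counting used strand, is not stated in the labels. The deposited values are a signal, the read count of each gene divided by 1 size factor per library, and 100.0% of them were whole multiples of 1 step per library (tolerance 0.01 reads), which gave back whole reads. The authors' log2 fold changes, their p-values and the gene length are further deposited columns.

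Limma-trend with robust moderation was run on log2(value + 1), keeping 15301 genes that averaged 10 or more, Benjamini-Hochberg adjusted over all of them, 2-sided, at a threshold of 0.05; fold changes on this scale are understated for low genes. Alternatives on the recovered reads were DESeq2, limma-voom and the quasi-likelihood test of edgeR. DESeq2 was also run on subsets of libraries and with the muscle markers as a covariate. These were DESeq2 1.42.0, edgeR 4.0.16 and limma 3.58.1 under R 4.3.3, and the tests were tried on simulated counts first.

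The 10 genes and all lists were chosen with earlier results of these data known, so no p was adjusted over a list and no list was tested. Named beyond the 10 genes are, per list, those called by DESeq2 and the 3 with the smallest limma p, and the 3 most similar protein-coding genes of each member with a mean of at least 50. No label says that samples are separate animals, so p-values measure the spread between samples. No 2 libraries of a genotype were duplicates (chi-square per degree of freedom at least 17.8). Replicate numbers follow accession order.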

Additional observations from a re-analysis of the deposited data

Results flagged for a closer look

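Within each genotype, the library farthest from the others was compared with the range of the group, in 20 groups of 5 values, where chance alone would mark about 1 in 20. On the scale of normalised counts a library stood apart in 3 of them. On the log2 scale used in the tests only 1 remained, Hsd11b1 in Wildtype (gap 0.898 of the range), while the gaps were 0.566 for Mt1 and 0.645 for Mt2 in PnocCre. Mt1 in PnocCre replicate 1 had 10893 normalised counts, and the nearest PnocCre library had 5177. Mt2 in the same library had 283, and the nearest had 76.6. Hsd11b1 in Wildtype replicate 5 had 4301, and the nearest Wildtype library had 2890.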

How the results depend on the processing

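No paired analysis was possible because the labels give the libraries no number shared between genotypes. Identifiers in the titles lie close together for some libraries of both genotypes, but the labels do not say what they mark, so no block was built from them. Neither edgeR nor limma-voom called a gene, and limma called 0 with other pseudocounts (0.5 and 5), with no filter or one at 50, with TMM rescaling and with the muscle covariate. The counts that moved were those of DESeq2 (575 genes, 2 of the 10 and 4 of the listed genes), of library weights in limma (53, 1 and 2), of DESeq2 with the muscle covariate (476, 1 and 3) and of DESeq2 without PnocCre replicates 1 and 2 (359, 2 and 6), of which the muscle covariate in DESeq2 and the removal of 2 libraries were added after the data were seen. With 1 library left out, limma called 0 to 1 genes, 0 of the 10 and 0 listed genes, and DESeq2 called 216 to 745 genes, 2 to 3 of the 10 and 4 to 5 listed genes. By library, DESeq2 called 439, 292, 578, 745 and 655 genes without PnocCre replicates 1 to 5, and 532, 216, 409, 273 and 241 without Wildtype replicates 1 to 5. The third of the 10 was Sgk1, without PnocCre replicate 3, which held its lowest PnocCre value.

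Signs turned only among genes that passed in no setting. Nr3c1 was -0.18 with the muscle covariate in limma and in DESeq2, and -0.014 to 0.11 in limma and -0.026 to 0.10 in DESeq2 with 1 library left out (-0.025 without Wildtype replicate 5). Hsd11b1 was 0.03 and 0.017 without PnocCre replicates 1 and 2 in limma and DESeq2. Mt1 was -0.024 with library weights, -0.30 and -0.31 without PnocCre replicates 1 and 2, and -0.28 to 0.19 and -0.30 to 0.31 with 1 library left out. Mt2 was -0.068 with the muscle covariate, -0.27 and -0.47 without those replicates, and -0.22 to 0.51 and -0.43 to 0.71 with 1 left out. Zbtb16 was 0.15 with DESeq2, 0.18 with edgeR, 0.053 with library weights, 0.70 and 0.70 without those replicates, and -0.52 to 0.18 and -0.32 to 0.39 with 1 left out (in DESeq2 0.38, 0.39, 0.15 and 0.054 without PnocCre replicates 1 to 4, and 0.12, 0.26, 0.19 and 0.23 without Wildtype replicates 2 to 5). The causes were not tested. Mt2, Fkbp5 and Zbtb16 had the fewest reads of the 10 genes and are the ones that depth limits most.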
